A study of Mus musculus with 9 samples.

Results

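Embryonic stem (ES) cells were compared with wildtype germline stem (GS) cells across every gene and probe that could be tested on the arrays. The comparison used the arrays titled as ES and as wildtype GS, 6 of the 9 arrays of the series, with 3 arrays in each group. The ES line was wildtype with a C57BL/6 genetic background. The wildtype GS line came from the postnatal testis and had a DBA/2 background. The remaining 3 arrays held an Xist knockout (KO) GS line, also DBA/2. They entered neither of the 2 group means compared. They did enter the filter that left out dim probes and the choice of 1 probe per gene. They also entered the estimate of the spread and the checks of the array slide. All samples were cultured cells collected with trypsin, profiled as total RNA labelled with the dye Cy3. The labels give neither sex, passage nor medium, and name 1 line per group. Cell type, strain and line therefore cannot be told apart here. The samples are described as independent but not as separate cultures, so each p-value reflects how much these particular samples varied, which may be technical variation.

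ES cells are grown from the inner cell mass of the blastocyst and can form every tissue of the embryo. A network of transcription factors around Pou5f1, Sox2 and Nanog keeps them in that state, with support from the cytokine LIF. GS cells are spermatogonial stem cells kept in culture, where the growth factors GDNF and FGF maintain them, and they normally give rise only to sperm. They carry a germ cell programme that includes the piRNA pathway, which silences transposable elements with small RNAs bound to PIWI proteins.

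Levels are normalised log2 levels, the log2 of the processed spot signal minus the 75th percentile of the same array, so 0 is a fairly bright spot and each unit is a doubling. A difference is the ES mean minus the wildtype GS mean on that scale. A feature is a gene, or a probe with no gene symbol, and it was called when its limma adjusted p fell below 0.05. The fold is written as "at least" if the gene had no probe that rose well above background on an array of the dimmer group. That bound sets the brighter group against the lowest signal that counted as above background, or against the gene's own level where that was higher. Between 52.3% and 67% of the probes on an ES array were well above background, and between 62.8% and 72.3% on a wildtype GS array. The lowest signal that counted as above background was -5.03 to -4.03 on the ES arrays and -6.03 to -5.01 on the wildtype GS arrays. Across the features tested that had a value on every array, ES arrays correlated with each other at r = 0.9881 to 0.9901. Wildtype GS arrays correlated at 0.9939 to 0.995, and ES with wildtype GS arrays at 0.8246 to 0.8342. On the probe used, 1 of the 3 GS arrays was above background for Fzd8, Icam1 and Majin, and 2 for Eras and Spry4. In ES cells 1 array was above background for Boll, Gbp2, Henmt1, Hfm1, Igf2 and Postn, and 2 for Aldh1a1, Cdh13, Cpeb1, Dio3, Egr1, Ftx, Hc, Hdac2, Hoxb4, Id4, Inpp5f, Phc3, Pik3ca, Pik3r1, Pygl, Slc25a31, Smarca2, Sohlh1, Tgfbr3 and Zbtb33. Standard errors of differences printed without their own lie between 0.0715 and 1.29, with a median of 0.141.

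Most of the transcriptome differed between the cell types. Of 21044 features tested, 16058 were called, which is 76.3%. ES cells had the higher level in 8357 of them (39.7% of those tested) and the lower level in 7701 (36.6%). Counts of list members that rose or fell below are to be read beside these shares. The ES and wildtype GS arrays did not overlap in 15868 of the called features. A fitted difference of at least 4-fold was reached by 2131 features higher in ES cells (10.1%) and by 2718 lower (12.9%). With genes that have only a bound set at that bound, these shares were 9.89% and 10.3%, and the counts of list members past 4-fold below use the bounds in the same way. The median difference over all features was 0.08. Of the features past 4-fold, 43.9% were higher in ES cells, a share that became 54.6% when arrays were scaled to their medians instead, and the median difference over all features then became 0.35, so the balance of the large changes depends on the scaling.

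**Figure D1:**
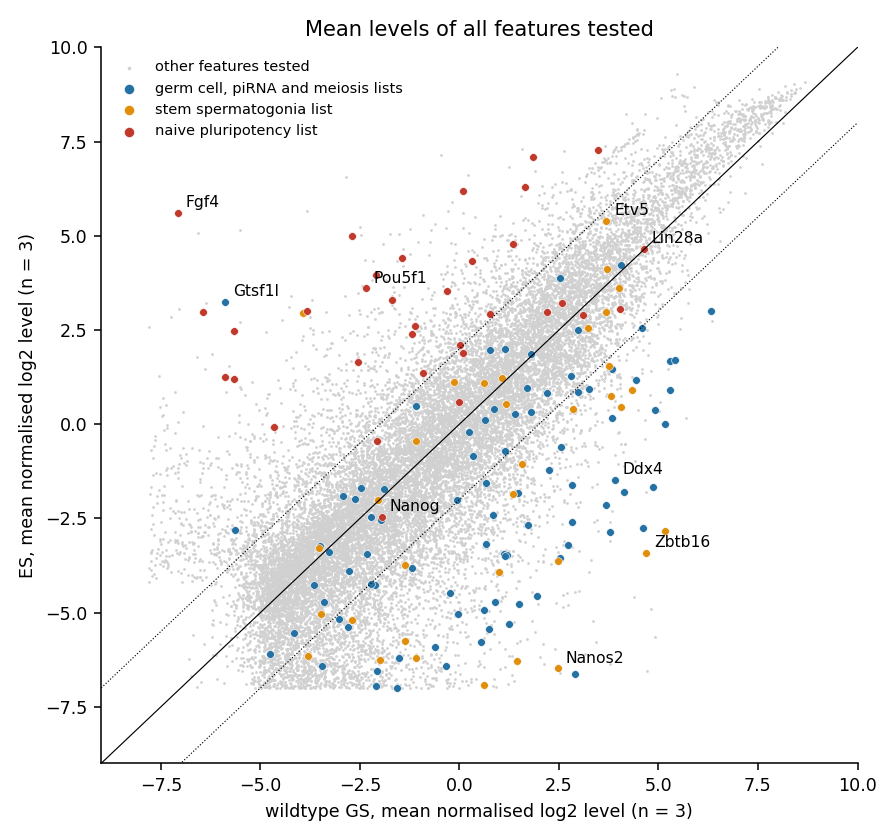
Mean normalised log2 level of each of the 21044 features in wildtype GS cells (x axis) and ES cells (y axis), n = 3 arrays each. The solid line marks equal levels and the dotted lines a 4-fold difference; members of the naive pluripotency list lie mostly above the lines and those of the germ cell, piRNA and meiosis lists mostly below.

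The genes of naive pluripotency were almost all higher in ES cells. Of 34 list members tested, 30 rose, 2 fell and 2 were not called, and 25 were at least 4-fold higher, with a median difference of 3.93. Among the 20 transcription factors of the list, 19 rose. Pou5f1, which encodes the core pluripotency factor Oct4, stood at 3.29, 3.63 and 3.88 on the ES arrays and at -2.33, -2.75 and -1.97 on the wildtype GS arrays (difference 5.95, SE 0.213, limma adjusted p = 4.53e-08). Its partner Sox2 stood at 1.52, 1.73 and 1.71 against -2.54, -2.54 and -2.58 (difference 4.21, SE 0.0886, adjusted p = 4.8e-09). Neither gene's groups overlapped, and both were well above background on every wildtype GS array. Esrrb, a nuclear receptor of the naive network, stood at 6.52, 6.15 and 6.20 in ES cells and at 1.63, 1.70 and 1.59 in GS cells, a 25.2-fold difference. Prdm14, which restrains the primed state, stood at 1.38, 1.25 and 1.14 against -6.37, -5.44 and -5.84, with 1 of the 3 GS arrays above background. Nr0b1 (Dax1), a repressor that binds Oct4, was at least 342-fold higher. Klf5 (6.08), Utf1 (6.09), Tbx3 (4.99), Klf2 (4.02) and Tfcp2l1 (3.74), further factors of the network, rose by the differences given.

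Some of the network was already present in GS cells, and the differences there were smaller. Zfp42 (Rex1), a standard marker of undifferentiated ES cells, stood at 2.00, 2.04 and 2.26 in ES cells and at 0.15, -0.01 and -0.07 in GS cells. This 4.22-fold difference had no overlap between the groups (SE of the log2 difference 0.104). Klf4 stood at 2.99, 2.82 and 2.96 against 0.70, 0.88 and 0.76, a 4.42-fold difference. Sall4 (0.63), Nr5a2 (0.59) and Mycn (0.78), which act in pluripotent cells and in part in germ cells, rose by less than 2-fold. Lin28a, an RNA-binding protein shared by ES cells and spermatogonia, did not pass the test, at 4.63, 4.70 and 4.61 in ES cells against 4.57, 4.74 and 4.60 in GS cells (95% interval of the difference -0.19 to 0.21, with -0.88 under quantile normalization). Trim71, a partner of the Lin28a and let-7 axis, fell (-0.97). Nanog, the third core factor, also had a lower value in ES cells, at -2.62, -2.47 and -2.30 against -1.99, -2.04 and -1.79 (difference -0.52, SE 0.12, adjusted p = 0.0036). That value rests on 1 kept probe whose signal was low on all 6 arrays, and the gene has near-identical processed copies in the genome. What the probe binds was not tested, so the level of Nanog itself is uncertain.

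All 4 secreted and surface factors of the pluripotency list rose. Fgf4, the growth factor that ES cells make and that drives their exit from self-renewal through ERK, stood at 5.76, 5.55 and 5.50 on the ES arrays and at -7.15, -7.53 and -6.56 on the GS arrays, none of them above background, and was at least 2177-fold higher. Gdf3, a TGF-beta family ligand, stood at 5.08, 4.98 and 4.94 against -2.73, -2.74 and -2.65 (difference 7.71, SE 0.0891). Tdgf1 (Cripto), the coreceptor for Nodal, rose by 3.60. Dppa2 (6.84), Dppa5a (5.22), L1td1 (5.87) and Eras (6.86), used as ES cell markers, rose as well. Dppa4 (1.80) and Dppa3 (Stella, 1.63) rose less. Khdc3, a subunit of the maternal complex beneath the egg membrane, stood at 5.29, 5.07 and 4.88 against -6.88, -7.13 and -5.72, with 1 GS array above background.

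Genes of the primed epiblast, the state after implantation, were mixed. Of 14 tested, 8 rose and 5 fell, with 7 at least 4-fold higher and 4 at least 4-fold lower and a median of 1.76. With the 11 members above background on all arrays the median was 0.04. Nodal rose by 5.74, its inhibitors Lefty1 by at least 35.7-fold and Lefty2 by 2.14, and Otx2, a factor of the early primed state, by 2.83. Sox3 (-4.11), Sox4 (-4.15), Grhl2 (-2.96), Pou3f1 (-2.46) and Fgf8 (-1.81) fell. Eomes was near its GS level (0.04). Of 4 tested markers of the rare ES cells that resemble the cleavage embryo, 1 rose and 1 fell, with a median of 0.17. Arg2 fell, with no ES array above background on that probe and a difference of 0.20 after normexp background correction. Zscan4c rose by 1.32, although Zscan4c has near-identical copies that the array may not separate.

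**Figure D2:**
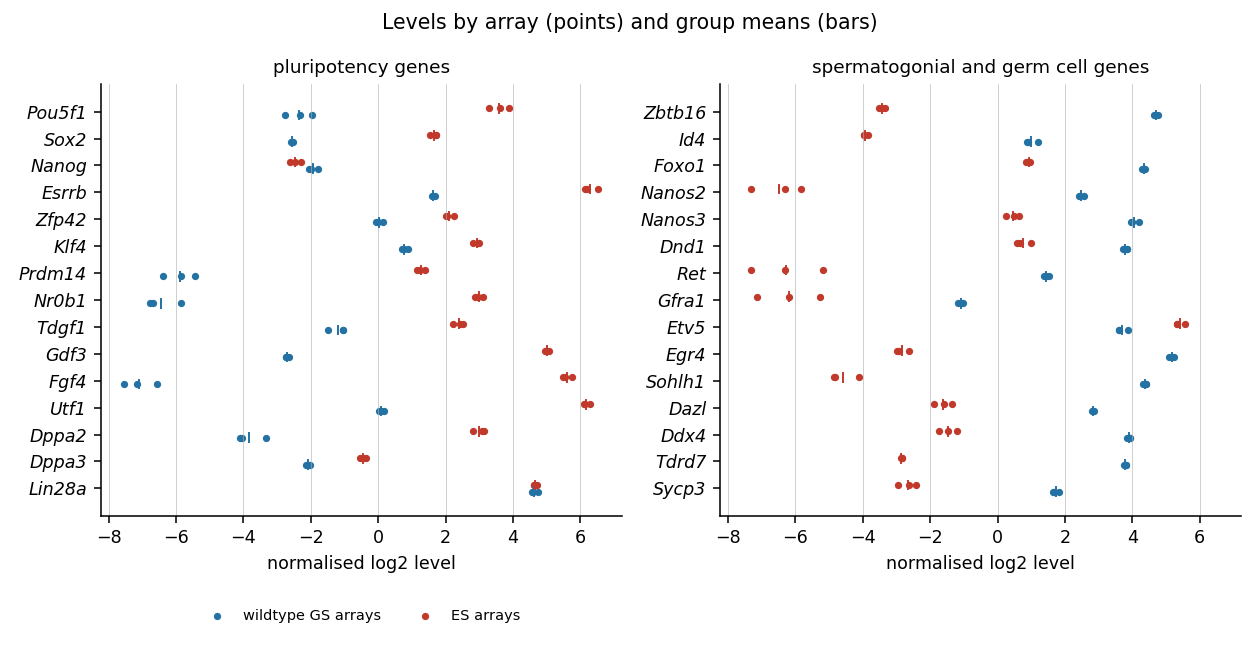
Normalised log2 levels of 30 pluripotency, spermatogonial and germ cell genes on the 3 ES arrays (red) and the 3 wildtype GS arrays (blue), with a bar at each group mean. The groups are apart for every gene shown except Lin28a, and for Nanog and Etv5 the order is opposite to that of the other genes of their panel.

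The spermatogonial stem cell programme was lower in ES cells, with clear exceptions. Of 36 list members tested, 25 fell and 7 rose, 19 were at least 4-fold lower and 1 at least 4-fold higher, with a median of -2.36 (-2.29 with bounds). The median was -0.96 after normexp background correction and -0.65 over the 26 members above background on all arrays, a filter that removes genes not above background in ES cells. Among transcription factors, Zbtb16 (Plzf), which maintains undifferentiated spermatogonia, stood at -3.42, -3.51 and -3.34 in ES cells and at 4.66, 4.76 and 4.65 in GS cells (difference -8.12, SE 0.0893, adjusted p = 2.88e-09). Id4, which marks the most stem-like spermatogonia, stood at -3.96, -3.85 and -3.98 against 1.20, 0.92 and 0.87. Foxo1 (-3.42), Foxc2 (-6.12), Egr4 (-8.01) and Dmrt1 (-3.20) fell too. The RNA-binding protein Nanos2, which keeps male germ cells from differentiating, stood at -6.31, -5.83 and -7.31 against 2.58, 2.43 and 2.44 and was at least 144-fold lower. None of its ES values was above background.

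The GDNF receptor was not above background in ES cells. Its signalling subunit Ret stood at -6.32, -5.18 and -7.32 in ES cells, not above background on any array, and at 1.37, 1.43 and 1.54 in GS cells, at least 70.2-fold lower. The binding subunit Gfra1 stood at -6.19, -5.27 and -7.14 against -1.08, -1.18 and -1.01, at least 12.1-fold lower. The 7 list members that rose were Cdh1, Etv5, Csf1r, Sall4, Epcam, Thy1 and Cd9. Cdh1 (E-cadherin), the adhesion protein of epithelia and ES cells, stood at 2.99, 2.95 and 2.92 in ES cells and at -3.95, -4.09 and -3.77 in GS cells (difference 6.89, SE 0.119, adjusted p = 2.9e-09). Etv5, a GDNF and FGF target needed for stem cell renewal in the testis, stood at 5.56, 5.33 and 5.33 against 3.87, 3.60 and 3.60, a 3.28-fold rise. Thy1 (0.46), Epcam (0.64) and Cd9 (0.40), surface proteins used to sort spermatogonia, rose by less than 2-fold. With quantile normalization Cd9 was lower in ES cells (-0.29).

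Genes of differentiating spermatogonia did not follow the stem cell list as a block. Of 14 tested, 6 rose and 7 fell, with 2 and 5 past 4-fold and a median of -0.37. Among all features 39.7% were higher and 36.6% lower. Sohlh1, a helix-loop-helix factor of spermatogonial differentiation, stood at -4.85, -4.11 and -4.82 in ES cells and at 4.42, 4.41 and 4.33 in GS cells (difference -8.98, SE 0.198). Neurog3 fell by 6.00. The receptor tyrosine kinase Kit rose by 2.47, and Rarg, the retinoic acid receptor of spermatogonia, stood at 4.59, 4.44 and 4.38 against 2.63, 2.77 and 2.66. Stra8, which retinoic acid induces at the onset of meiosis, fell by 0.74.

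The wider germ cell programme was lower in ES cells almost throughout. In the germ cell identity list 28 of 34 tested members fell and 3 rose, with 23 at least 4-fold lower, 1 at least 4-fold higher and a median of -3.20 (-2.86 with bounds). Ddx4 (Vasa), the germ cell RNA helicase, stood at -1.73, -1.48 and -1.20 in ES cells and at 3.85, 3.93 and 3.94 in GS cells (difference -5.37, SE 0.151, adjusted p = 1.39e-08). Dazl, an RNA-binding protein of germ cells, stood at -1.88, -1.58 and -1.35 against 2.83, 2.80 and 2.87. Both stayed above background on all 3 ES arrays. Tex13b, an X-linked testis gene, was at least 194.2-fold lower. The 3 members that rose were Hsf2bp (0.63), Rbmxl2 (1.35) and Gtsf1l, a relative of the piRNA protein Gtsf1. Gtsf1l stood at 3.42, 3.17 and 3.15 in ES cells and was not above background on any GS array, at least 416.9-fold higher, while Gtsf1 fell by 3.61.

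In the piRNA pathway 23 of 24 tested members fell, 20 of them by at least 4-fold, with a median of -4.68 (-4.54 with bounds). Tdrd7, a Tudor protein of the germ granule, stood at -2.88, -2.85 and -2.83 in ES cells and at 3.81, 3.81 and 3.76 in GS cells, a 100-fold difference with an SE of 0.073 on the log2 scale. The PIWI proteins Piwil2 (-3.47) and Piwil1 (at least 8.93-fold) fell. Asz1 fell by at least 37.6-fold and Tdrd1 by at least 20.4-fold, and the helicase of piRNA precursors, Mov10l1 (-5.94), fell too. Henmt1, which methylates the ends of piRNAs, fell by 6.55. Morc1, an ATPase that represses transposons in male germ cells, was the 1 member that rose (1.19).

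Meiotic genes were mostly lower in ES cells. Of 35 tested, 25 fell and 5 rose, with 15 at least 4-fold lower and a median of -1.38 (-1.32 with bounds), which was -0.59 after normexp background correction. Sycp3, of the lateral element of the synaptonemal complex, stood at -2.62, -2.95 and -2.42 in ES cells and at 1.66, 1.68 and 1.83 in GS cells. Sycp1 (-5.64) and Tex12 (-4.64) of the central region fell, as did the meiotic cohesins Smc1b (-5.41), Stag3 (-3.68) and Rec8 (-1.38). Sycp1 was above background on 1 of the 3 ES arrays. The group of recombination and other meiotic prophase genes was less uniform. In it 12 of 19 fell, led by the helicase Hfm1 (-5.32), and Dmc1 (0.79), Mnd1 (0.84), Mlh3 (1.03), Psmc3ip (1.58) and Majin (2.84) rose. Of 16 spermatid genes tested, 9 fell and 5 rose, with 4 at least 4-fold lower and a median of -0.64.

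The promoters of these germ cell genes were searched for short sequences, which the comparison did not use. The window was 250 bases before to 50 after the RefSeq start, on the GRCm38.p6 build, with 1 window per gene. Motifs were searched on both strands, and CACGTG is its own reverse complement. CACGTG, the E-box bound by MAX and MGA among others, lay in 39.1% (18 of 46) of the promoters of germ cell, piRNA and meiosis genes at least 4-fold lower by fitted difference in ES cells. It lay in 30.7% (23 of 75) of the promoters of all tested members of those lists in 9.94% of the promoters of all genes tested, in 11.8% of those of all genes at least 4-fold lower and in 7.24% of all 27025 promoters of the table. Of all genes tested 79.7% had a promoter in the table, and of all genes at least 4-fold lower 78.7%. By list it lay in 52.9% of the piRNA promoters, 50% of the meiosis promoters and 31.6% of the germ cell identity promoters past 4-fold lower. GCGGGAA, a form of the E2F site, lay in 23.9% (11 of 46), against 7.92% for all genes tested, 6.64% for all genes at least 4-fold lower and 4.66% of the whole table. Its share of all tested members of the lists was nearly the same, 22.7% (17 of 75). By list it lay in 11.8% of the piRNA promoters, 35.7% of the meiosis promoters and 31.6% of the germ cell identity promoters past 4-fold lower. Both motifs together lay in 10.9% (5 of 46), and in 9.33% (7 of 75) of all tested members of the lists. The share was 0.775% for all genes tested, 0.893% for all genes at least 4-fold lower and 0.463% of the whole table. CCAAT lay in 47.8% against 38.7% for all genes tested, ATGCAAAT in 0% against 1.39% and TGACGTCA in 0% against 3.05%. A match is a description of the letters and shows no binding, and the lists were not tested against other genes. The 5 promoters of the 46 with both motifs are printed from RefSeq because they show how the motifs lie. Both motifs are in capitals, where TTCCCGC is GCGGGAA on the other strand.

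Slc25a31: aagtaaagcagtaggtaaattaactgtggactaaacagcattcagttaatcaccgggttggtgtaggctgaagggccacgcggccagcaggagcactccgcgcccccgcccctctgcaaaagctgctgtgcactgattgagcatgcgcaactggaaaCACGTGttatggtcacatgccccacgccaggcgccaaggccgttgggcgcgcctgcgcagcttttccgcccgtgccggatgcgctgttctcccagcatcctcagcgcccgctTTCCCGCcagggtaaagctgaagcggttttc

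Ddx4: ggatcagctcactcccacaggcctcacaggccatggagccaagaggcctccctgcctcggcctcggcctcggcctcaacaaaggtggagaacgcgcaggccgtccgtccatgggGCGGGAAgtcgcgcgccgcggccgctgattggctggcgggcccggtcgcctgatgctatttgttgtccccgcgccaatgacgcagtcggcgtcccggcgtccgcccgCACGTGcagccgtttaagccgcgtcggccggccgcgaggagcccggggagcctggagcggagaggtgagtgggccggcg

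Tex12: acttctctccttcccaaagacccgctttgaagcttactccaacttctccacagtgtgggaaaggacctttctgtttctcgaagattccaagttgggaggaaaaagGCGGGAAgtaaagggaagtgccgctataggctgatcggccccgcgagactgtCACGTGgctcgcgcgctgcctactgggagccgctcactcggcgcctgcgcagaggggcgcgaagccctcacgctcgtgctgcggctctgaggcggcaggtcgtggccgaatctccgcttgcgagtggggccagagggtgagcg

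Sycp3: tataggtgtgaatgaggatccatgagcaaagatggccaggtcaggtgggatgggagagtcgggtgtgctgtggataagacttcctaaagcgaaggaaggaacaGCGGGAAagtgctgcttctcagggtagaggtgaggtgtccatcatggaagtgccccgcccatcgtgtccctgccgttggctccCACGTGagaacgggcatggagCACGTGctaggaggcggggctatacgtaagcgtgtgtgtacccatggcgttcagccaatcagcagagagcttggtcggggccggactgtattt

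Stag3: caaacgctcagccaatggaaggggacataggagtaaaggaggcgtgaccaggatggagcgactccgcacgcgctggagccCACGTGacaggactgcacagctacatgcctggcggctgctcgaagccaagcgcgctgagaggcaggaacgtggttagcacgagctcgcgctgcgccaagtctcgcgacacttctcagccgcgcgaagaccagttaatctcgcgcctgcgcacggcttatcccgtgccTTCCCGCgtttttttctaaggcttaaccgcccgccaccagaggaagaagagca

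Slc25a31 lies at chr3:40708621-40708920 on the plus strand, Ddx4 at chr13:112652261-112652560 on the minus strand, Tex12 at chr9:50561219-50561518 on the minus strand, Sycp3 at chr10:88459337-88459636 on the plus strand and Stag3 at chr5:138280259-138280558 on the plus strand. CACGTG began 93 bases before the start in Slc25a31 and Tex12, 29 before it in Ddx4 and 170 before it in Stag3, and Sycp3 held it at 64 and at 43 bases before the start. GCGGGAA began 136 bases before the start in Ddx4, 145 in Tex12 and 147 in Sycp3. In the other promoters it lay on the other strand and elsewhere. There TTCCCGC began 3 bases before the start in Stag3 and at base 20 after it in Slc25a31. Slc25a31, the germ cell form of the mitochondrial ADP/ATP carrier, had the largest difference of the 5. It stood at -4.93, -4.12 and -4.61 in ES cells and at 2.05, 1.95 and 1.89 in GS cells (difference -6.51, SE 0.184).

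The variant Polycomb complex PRC1.6, which is known to bind such E-box and E2F sequences and to repress germ cell genes in ES cells, had members that differed in both directions. Its subunits Pcgf6 (1.13) and L3mbtl2 (1.64) rose. Its DNA-binding subunits E2f6 and Mga fell: E2f6 stood at 1.54, 1.55 and 1.45 in ES cells and at 3.69, 3.77 and 3.65 in GS cells, and Mga at -2.68, -2.07 and -1.72 against -0.30, -0.39 and -0.31. Max, the partner of Mga, differed by 0.25 (adjusted p = 0.0224), and by -0.19 under quantile normalization. Whether these levels bear on the germ cell genes was not tested.

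In most signalling pathways members rose and fell in similar numbers, and the plot of signalling members orders them by role. In the LIF pathway, 5 of 7 receptor and transducer genes fell and 1 rose, while 7 of 9 targets rose and 2 fell. Jak1, the kinase bound to the receptor, stood at 0.99, 1.07 and 1.25 in ES cells and at 3.43, 3.52 and 3.47 in GS cells, and Stat3, the transcription factor it activates, fell by 1.59. The LIF targets Gbx2 (at least 80.1-fold), Bcl3 (5.60) and Pim3 (2.31) rose, and Socs1 (-1.57) and Pim1 (-0.49) fell.

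Of 49 genes of the GDNF, FGF and ERK pathway, 22 rose and 16 fell, 7 and 8 of them past 4-fold, and the median of 0.10 was close to that of all features. Outputs of the pathway split. Egr1, an immediate early factor, stood at -4.84, -4.29 and -4.30 in ES cells against 2.79, 2.66 and 2.65 in GS cells (difference -7.18, SE 0.15). Egr2, its relative, fell by at least 39.9-fold and Fos by at least 6.73-fold. Of 13 targets 6 rose and 4 fell, and of 8 feedback inhibitors 4 rose and 1 fell. Etv4, an ETS factor induced by FGF, stood at 6.06, 5.74 and 5.67 against 2.21, 1.98 and 2.03 (difference 3.75, SE 0.162). Etv1 (5.42), Myc (4.59), Ccnd1 (1.88), Dusp4 (1.51), Spry2 (3.38) and Spry4 (2.84) rose as well. Dusp6, Spry1 and Ier3 had intervals within 0.5 of 0, with differences of -0.22, 0.10 and -0.20. Of the receptors, Fgfr4 rose by 1.83 and Fgfr1 fell by 0.56, and Fgf9 fell by at least 6.92-fold.

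In the WNT pathway 16 of 49 rose and 21 fell, with 8 and 6 past 4-fold and a median of -0.10. Of 15 receptors 8 rose and 4 fell, and of 16 inhibitors 10 fell and 4 rose, where 39.7% of all features were higher and 36.6% lower. Fzd5 (2.65), Fzd9 (2.48) and Fzd8 (2.44) were among the receptors that rose, and Dkk3 (-3.92) and Nkd1 (-2.83) among the inhibitors that fell. Tcf7l1 (Tcf3), the repressor that limits the pluripotency network, stood at 2.09, 1.90 and 1.73 in ES cells and at -2.17, -2.24 and -2.21 in GS cells, while Tcf7 fell by 2.66. Beta-catenin (Ctnnb1) had an interval within 0.5 of 0 (-0.11). The targets Cdx1 (5.27) and Sp5 (at least 16.4-fold lower) went opposite ways.

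In the BMP, Nodal and TGF-beta pathway 16 of 45 rose and 18 fell, with 10 and 5 past 4-fold and a median of 0.08. Nodal (5.74) and Gdf3 (7.71) rose, as did Foxh1, a nuclear partner of the SMAD proteins, at 1.64, 1.44 and 1.40 in ES cells against -4.25, -4.35 and -3.93 in GS cells. Bmp4 (2.75) and Inhbb (3.40) rose, and the BMP receptor Bmpr1b fell by at least 14.2-fold and Tgfbr3 by 3.98. Smad2 (-1.43), Smad3 (-1.78) and Smad5 (-1.04) fell. For retinoic acid, all 6 tested receptors were called higher in ES cells, among them Rxrg (0.45), Rarg (1.78) and Rarb (at least 3.18-fold), although under quantile normalization Rxrb differed by -0.01 and another probe of Rxra was lower (-0.66). Of 7 genes of its synthesis or breakdown 5 fell, led by the synthesising enzymes Aldh1a3 (at least 13.6-fold), Aldh1a1 (-3.23) and Aldh1a2 (-3.15), and the carrier Rbp4 fell by 4.52.

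Insulin, IGF and PI3K signalling had more genes lower than higher in ES cells. Of 28 tested, 20 fell and 3 rose, with 6 and 2 past 4-fold and a median of -1.23, and after normexp background correction 14 fell and 4 rose with a median of -0.45. The receptor Igf1r stood at -1.81, -1.68 and -1.73 in ES cells and at 2.35, 2.44 and 2.30 in GS cells (difference -4.11, SE 0.102). Igf2 (-3.32), Irs2 (-2.54), Pik3ca (-2.09) and Pik3r1 (-1.96) fell. Among the 3 that rose were Eras (6.86), an ES cell RAS protein that activates PI3K, and Igfbp2 (2.26).

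**Figure D3:**
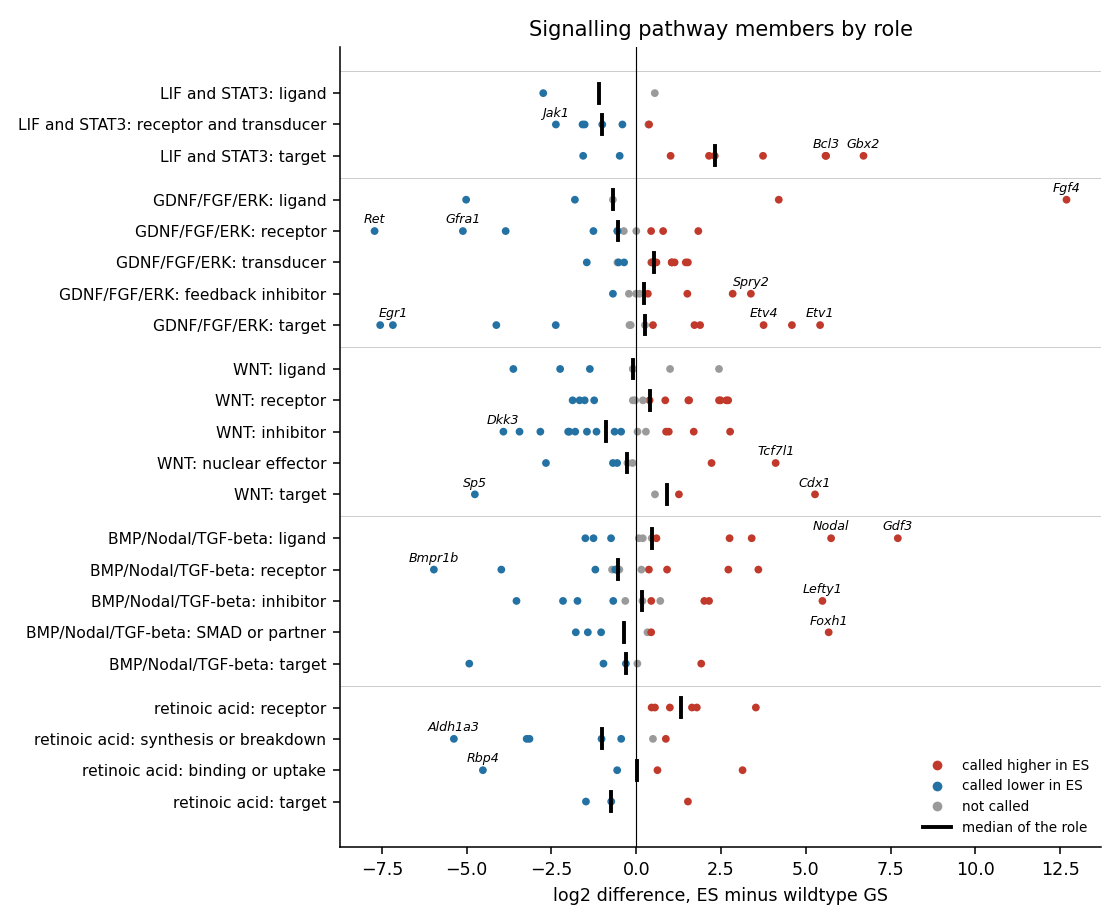
Log2 difference (ES minus wildtype GS) of each tested member of 5 signalling pathways, in rows by role, with the median of each row as a bar. LIF targets lie mostly to the right and LIF receptors and transducers to the left; fitted differences are plotted, which for genes with only a bound are no bound.

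DNA methylation genes were higher in ES cells in the writing and removal groups. Of 23 tested, 14 rose and 7 fell, with 7 and 3 past 4-fold and a median of 1.08. Dnmt3l, the cofactor of de novo methylation, stood at 5.81, 5.57 and 5.57 in ES cells and at -0.30, -0.24 and -0.31 in GS cells (difference 5.93, SE 0.11, adjusted p = 3.06e-09). Uhrf1 (2.34), Dnmt3b (1.08) and Dnmt1 (0.73) rose, and Dnmt3a fell, at -0.38 ± 0.02 in ES cells and 0.48 ± 0.02 in GS cells (SD, n = 3). All 6 tested removal genes rose, led by Tet2 at 1.56, 1.87 and 2.09 against -3.24, -2.76 and -3.10. Tet3 was among them (0.88), but its probes were called in opposite directions. Readers were divided. Trim28 (2.81), Zfp57 (2.69), Mbd3 (2.28) and Ctcf (2.20) rose, and Zbtb33 (Kaiso, -4.08), Mbd2 (-3.17) and Ctcfl (-2.61) fell.

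Polycomb subunits changed in both directions. Of 34 tested, 17 rose and 14 fell, where 39.7% of all features were higher and 36.6% lower. Their median of 0.28 turned to -0.18 under quantile normalization. Ezh2, the methyltransferase of dividing cells, stood at 2.69, 2.82 and 2.86 in ES cells and at -1.29, -1.31 and -1.17 in GS cells (difference 4.04, SE 0.0991). Its paralogue Ezh1 went the other way, at 2.42, 2.17 and 2.07 against 4.47, 4.62 and 4.45 (difference -2.30, SE 0.126). Of the accessory subunits, Phf19 (3.58) rose and Phf1 (-3.29) fell. In PRC1, Phc1 (3.00) and Rybp (2.20) rose and Cbx8 (at least 23.2-fold), Pcgf5 (-3.74), Phc3 (-2.56) and Bmi1 (-2.20) fell. Of 11 histone variant genes 9 rose and 2 fell, with a median of 1.98, and 6 rose and 3 fell under quantile normalization. H2az1 (3.56), H2ax (2.85) and the testis-type H2bc1 (3.81) led, and Macroh2a1, a variant of silent chromatin, fell by 1.08.

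Of 25 chromatin remodelling genes 13 rose and 5 fell, with a median of 0.31 that was -0.09 under quantile normalization. Hdac1 rose by 2.10 and Hdac2 fell by 1.63, and Hmga1 rose by 2.22. Smarca2 (Brm) fell by 2.11. Of 19 retroelement silencing genes 8 rose and 8 fell. Zfp809 (2.23), which recruits Trim28 to proviruses, rose and Suv39h1 (-2.68) fell.

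Imprinted genes moved in both directions, in shares near those of all features (39.7% higher and 36.6% lower). Of 26 paternally expressed genes tested, 10 rose and 12 fell (median -0.06), and of 22 maternally expressed genes 7 rose and 8 fell (median -0.01). Snrpn, expressed from the paternal allele, stood at 2.06, 2.02 and 2.01 in ES cells and at -2.19, -2.04 and -2.13 in GS cells (difference 4.15, SE 0.157). Ddc (3.83), Plagl1 (2.75) and Mest (2.01), also paternal, rose, and Igf2 (-3.32), Inpp5f (-3.29), Dio3 (-2.44) and Dlk1 (-2.39) fell. Among maternal genes Phlda2 stood at -0.57, -1.04 and -1.24 against -4.23, -4.23 and -4.41, and Meg3 rose by 1.73. Cdkn1c, the neighbour of Phlda2 and an inhibitor of cyclin-dependent kinases, stood at -0.81, -0.94 and -0.85 against 2.44, 2.29 and 2.46 (difference -3.27, SE 0.0851). Grb10, Slc22a18, Osbpl5 and Ascl2 had intervals within 0.5 of 0.

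The X-linked reproductive homeobox genes split. Rhox5, the founding member, stood at 6.54, 6.53 and 6.56 in ES cells and at -3.03, -2.46 and -3.07 in GS cells (difference 9.40, SE 0.171), and Rhox6 (5.03) and Rhox9 (4.26) rose. Rhox10, which acts in spermatogonial progenitors, stood at -2.88, -2.58 and -2.52 against 2.57, 2.76 and 2.40. With the other X-linked germ cell genes, 12 of 18 fell and 4 rose, with a median of -1.84, and Luzp4 fell by at least 56.7-fold. In the X-inactivation centre 3 of 4 tested genes fell, namely Rlim (-1.01), Chic1 (-0.85) and Ftx (-0.84). Under each of the 5 other scalings 2 of the 4 were called lower.

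All 6 tested Y-linked genes were lower in ES cells, with a median of -5.14 (-3.30 with bounds). Eif2s3y, a translation initiation factor, stood at -6.13, -7.08 and -7.08 in ES cells and at 0.23, 0.18 and 0.45 in GS cells, at least 31.5-fold lower. Usp9y fell by at least 12.9-fold, Zfy2 by at least 10.6-fold, Ddx3y by at least 9.23-fold and Zfy1 by at least 3.92-fold, and none of these 5 was above background on any ES array. They passed the filter on dim probes only through GS arrays, so the filter itself favours a lower ES level for them. With only probes above background on all arrays, none of the 6 was left. Rbmy, a multicopy gene of the Y chromosome outside the list, was above background on 1 ES array and differed by -9.24. The labels do not give the sex of either line. Of all features 36.6% were called lower.

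Medians by chromosome were compared as a description. Relative to the median of all 14566 placed genes, chromosome 8 lay 0.361 higher (766 genes), chromosome 7 lay 0.294 higher (1202 genes), chromosome 18 lay at -0.347 (333 genes) and the X chromosome at -0.376 (545 genes). On chromosome 8, 50.5% of genes were called higher and 28.6% lower, against 40.2% and 39.0% of all placed genes. On the X, 14.7% of genes were past 4-fold higher and 22.6% past 4-fold lower, against 10.4% and 13.7% of all placed genes. With only probes above background on all arrays the X value was -0.030. These medians were not tested.

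Cell cycle genes were higher in ES cells in most roles. Of 37 tested, 23 rose and 10 fell, with 15 and 4 past 4-fold and a median of 1.05. Ccne1 (cyclin E), which drives entry into S phase, stood at 5.97, 5.89 and 5.78 in ES cells and at -0.13, -0.12 and -0.31 in GS cells (difference 6.07, SE 0.109, adjusted p = 3.06e-09). Plk1 (3.98), Cdk1 (3.18), Ccna2 (3.18) and Cdc25a (3.08) rose. Rb1, the brake on S phase entry, stood at -2.76, -2.51 and -2.31 against 1.16, 1.31 and 1.26. E2f8 (6.20) and E2f4 (3.88) rose, and the D cyclins split, with Ccnd1 (1.88) and Ccnd3 (2.02) higher and Ccnd2 (-2.62), the D cyclin of spermatogonia, lower.

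Of 33 genes of p53 and apoptosis 20 rose and 11 fell, with 9 and 4 past 4-fold and a median of 0.89. Trp53 stood at 0.99, 0.76 and 0.75 in ES cells and at -3.02, -3.16 and -3.02 in GS cells (difference 3.90, SE 0.192). Its targets Bbc3 (2.54), Gadd45a (2.21) and Cdkn1a (2.03) rose, and its inhibitors Mdm4 (-2.33) and Mdm2 (-1.15) fell. The initiator caspase Casp8 (2.40) rose and Bik (-3.46), a death-promoting BCL2 relative, fell.

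Glycolysis was higher in ES cells. Of 28 genes tested, 19 rose and 5 fell, with 11 and 2 past 4-fold and a median of 1.60, and 18 rose and 8 fell under quantile normalization. Hk2, which commits glucose to the pathway, stood at 2.97, 2.89 and 2.85 in ES cells and at -2.67, -2.68 and -2.98 in GS cells (difference 5.68, SE 0.129). Pfkl (3.98), Pfkp (3.73), Pgk1 (3.71), Tpi1 (3.34) and Ldha (3.18) rose. The 5 that fell were Aldoc (-3.41), the testis lactate dehydrogenase Ldhc (-3.30), Pdk2 (-1.21), Pdk4 (-0.87) and Hk1 (-0.74).

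Oxidative phosphorylation genes rose by smaller amounts, and their count depended on the scaling. Of 46 tested, 34 rose and 7 fell, with 6 and 2 past 4-fold and a median of 1.14, whereas under quantile normalization 23 rose and 15 fell with a median of 0.32. Atp5a1 (2.81), Cox5a (2.42) and Cyc1 (2.28) rose. Of the 7 that fell, 4 are known as testis or muscle forms, namely Slc25a31, Cox8c (-2.86), Cox6a2 (-1.17) and Cyct (-0.80). The somatic carrier Slc25a5 stood at 5.10, 4.96 and 4.99 in ES cells and at 1.12, 1.01 and 1.06 in GS cells, opposite to its germ cell form Slc25a31.

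Threonine, serine and one-carbon metabolism was higher in ES cells. Of 24 genes tested, 19 rose and 3 fell, with 10 and 1 past 4-fold and a median of 1.63, and 18 rose and 3 fell under quantile normalization. Tdh, the threonine dehydrogenase that mouse ES cells depend on, stood at 7.25, 7.12 and 7.09 in ES cells and at -0.00, -0.55 and -0.83 in GS cells (difference 7.62, SE 0.209, adjusted p = 1.25e-08). Amt, of the glycine cleavage system, rose by at least 28.7-fold and Gldc, of the same system, by 3.49. Mthfd1l (5.17), Mthfd1 (4.28), Psat1 (3.64) and Cbs (5.18) rose, and methionine synthase Mtr fell by 3.52.

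In cholesterol synthesis 8 of 24 genes were higher and 9 lower, near the shares of all features, and under quantile normalization 8 were higher and 13 lower. The late enzymes Ebp (5.23) and Tm7sf2 (5.18) rose, Pmvk rose by 3.28, and Insig1 (-2.41) and Hmgcs1 (-1.71), which are regulated by sterols, fell.

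Genes of interferon and viral RNA sensing were split. Of 27 tested, 11 rose and 14 fell, with 5 and 10 past 4-fold and a median of -0.76 (-0.18 with bounds). The receptor subunits Ifngr2 (-2.93), Ifngr1 (-2.67) and Ifnar1 (-2.49) fell, with the factor Irf1 (-2.65) and the sensor Ifih1 (-2.94, above background on 2 ES arrays). Gbp2 stood at -4.71, -4.42 and -5.04 against -0.03, -0.03 and -0.06. Ifitm2 (6.04) and the sensor Ddx58 (RIG-I) rose, the latter at 2.98, 3.04 and 3.12 in ES cells against -1.61, -1.60 and -1.67 in GS cells. Antigen presentation was lower in ES cells, with 10 of 14 down and 2 up and a median of -1.47. B2m, the light chain of class I molecules, stood at -0.39, -0.51 and -0.16 against 1.49, 1.49 and 1.46, and Tap2 (-3.26), Tapbp (-2.75) and Psmb9 (-2.58) fell. The class I heavy chains H2-K1 (-1.10) and H2-D1 (-0.85), for which the strains carry different haplotypes, fell.

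Adhesion genes were divided, with 21 of 49 higher and 24 lower, where 39.7% of all features were higher and 36.6% lower. Connexins went in both directions. Gja1 (at least 8.68-fold) rose and Gjb2 (-4.20) and Gja4 (-2.57) fell. Itga5, the fibronectin receptor subunit, stood at 0.36, 0.22 and 0.13 in ES cells and at -3.99, -4.22 and -3.84 in GS cells, and Itga6 and Itgb1, used to enrich spermatogonial stem cells, fell by 0.39 and 0.64. Cdh15 (-3.59) and Cdh13 (-3.25) fell. Prom1 (CD133) rose by at least 12.1-fold and Icam1 by 3.91.

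Among 40 RNA regulators 22 fell and 15 rose, with 12 and 6 past 4-fold and a median of -0.99, which was -0.15 over the 33 members above background on all arrays. The splicing regulator Celf2 stood at -3.47, -3.34 and -2.96 in ES cells and at 2.36, 2.52 and 2.38 in GS cells. Besides Nanos2 and Dazl, Cpeb1 (-4.78), Boll (-4.28), Mbnl2 (-3.30) and Dnd1 (-3.04) fell. Igf2bp3 (3.64), Rbpms2 (3.16), Igf2bp1 (2.68) and Ptbp1 (2.05) rose. Lin28b, the paralogue of Lin28a, fell by 1.62.

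Hox genes, which pattern the body axis, were mostly lower in ES cells. Of 26 tested, 17 fell and 3 rose, with 13 at least 4-fold lower, 1 at least 4-fold higher and a median of -2.53 (-1.70 with bounds). The median was -0.60 after normexp background correction and -3.25 over the 11 members above background on all arrays. Of the 38 Hox genes on the array only these 26 were tested, and 8 of the 26 had only a bound. All 9 tested Hoxb genes fell. Among them Hoxb8, Hoxb2 and Hoxb5 were not above background on any ES array. They passed the filter on dim probes only through GS arrays, so the filter itself favours a lower ES level for them. Hoxb8 stood at -6.01, -5.60 and -6.95 in ES cells and at 2.02, 1.80 and 2.22 in GS cells, at least 104.2-fold lower. Hoxb4 stood at -4.71, -4.53 and -4.09 against 1.86, 1.79 and 1.84 (difference -6.27, SE 0.15). Hoxb2 fell by at least 47.3-fold, Hoxb5 by at least 24.6-fold, and Hoxb7 fell by 6.08. Among the 3 that rose were Hoxd13 (at least 4.01-fold) and Hoxc13 (1.29).

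Signals of the stem cell niche and chemokines were split, with 5 of 14 higher and 7 lower. Vegfc (4.59), Pdgfc (3.81) and Vegfa (2.82), growth factors of vessels and mesenchyme, rose, and Pdgfb fell by 3.97.

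Regulators of other lineages were mixed. Of 36 tested, 11 rose and 15 fell, where 39.7% of all features were higher and 36.6% lower. Of 10 trophoblast genes 5 rose and none fell, led by Tead4 at 0.40, 0.24 and 0.11 in ES cells against -4.73, -4.90 and -4.94 in GS cells and by Tfap2c (3.04), which is also a germ cell factor. Of 9 mesoderm genes 6 fell, with Pdgfra at least 10.1-fold lower. In the neural group Hes5 (-4.33) and Nes (-2.47) fell and Sox1 (1.64) rose. Zic1, a neural and spermatogonial zinc finger gene, was lower in ES cells on its brighter probe, which was not above background there, but its other probe was higher in ES cells (1.22), so its direction is uncertain. Of 7 endoderm genes 2 rose, 2 fell and 3 were not called, with 1 at least 4-fold higher, 2 at least 4-fold lower and a median of 0.47. The group thus had no common direction. Of the hepatic and endodermal genes with large falls, Afp stood at -6.20, -6.44 and -7.15 in ES cells against 2.50, 2.66 and 2.40. Foxa2 stood at -5.77, -6.34 and -7.01 against 2.20, 2.18 and 1.97. They were at least 148.1-fold and at least 112-fold lower in ES cells.

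Genes outside these lists that the naming rule picked were as large. Higher in ES cells were Calca, the calcitonin gene (at least 269.8-fold), Tgm1, a transglutaminase (at least 374.7-fold), Fam25c (at least 320.6-fold) and Jam2, a junctional adhesion molecule (at least 419.2-fold). Smtnl1 (8.21) was above background on 1 GS array. Lower in ES cells were Asb9, a subunit of ubiquitin ligases (at least 353.7-fold), Clic6, a chloride channel protein (at least 135-fold) and Ssxb1 (at least 66.22-fold). Pygl, the liver form of glycogen phosphorylase, stood at -5.06, -4.89 and -4.78 in ES cells and at 4.76, 4.87 and 4.79 in GS cells (difference -9.72, SE 0.0971).

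**Figure D4:**
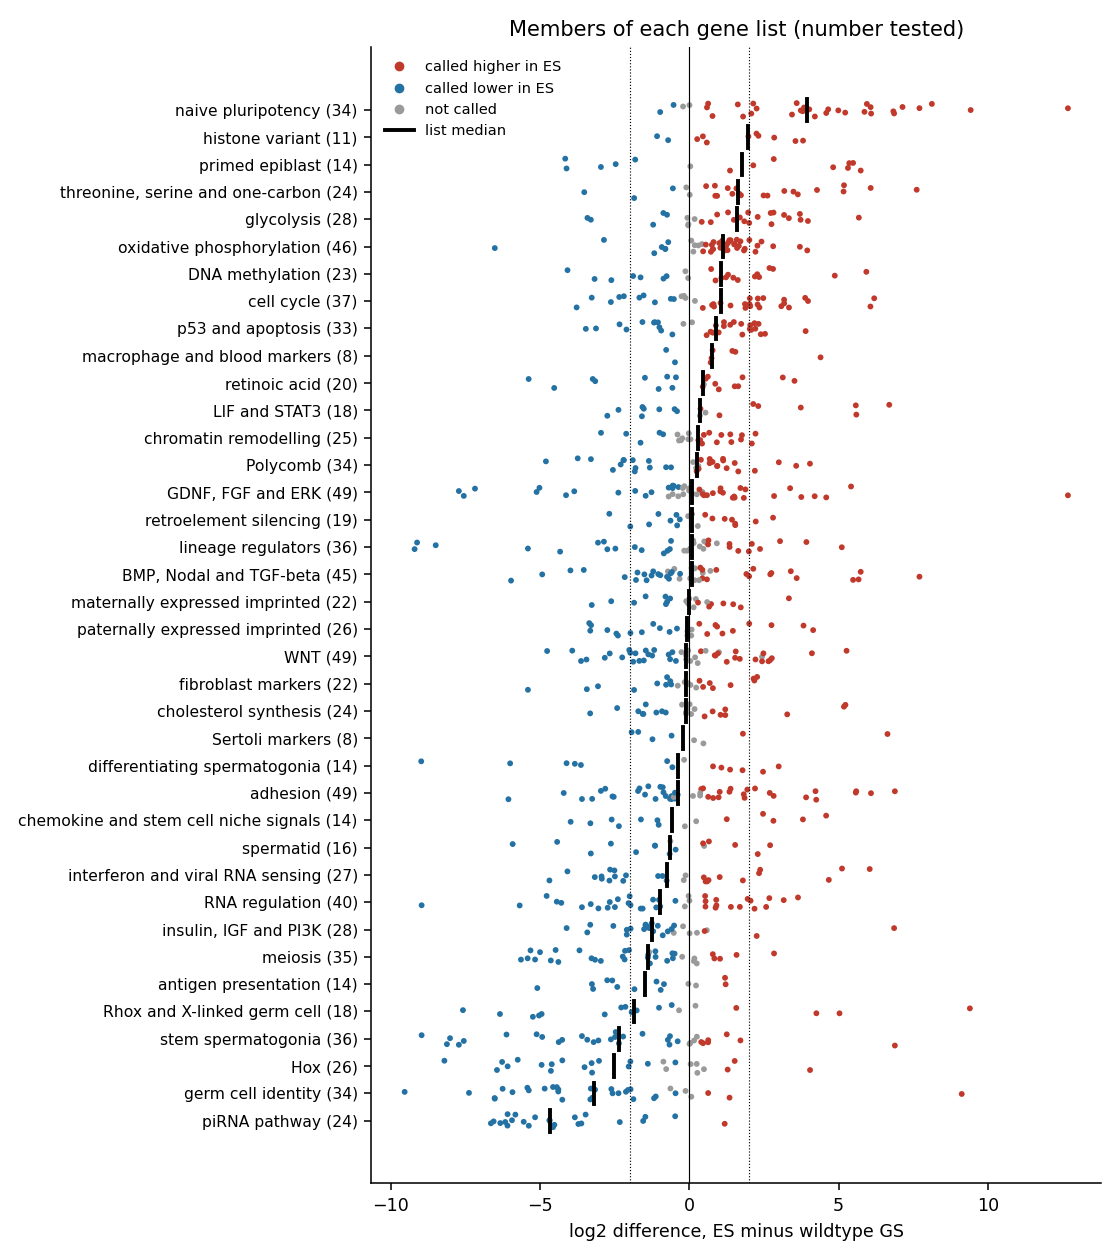
Log2 difference (ES minus wildtype GS) of every tested member of the 38 gene lists with at least 8 tested members, coloured by call, with a bar at the list median. The piRNA list has the lowest median (-4.68) and the naive pluripotency list the highest (3.93); fitted differences are plotted, which for genes with only a bound are no bound.

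Markers of other cells that such cultures could hold were checked as whole lists. Of 22 fibroblast markers 8 rose and 9 fell, with a median of -0.10. Pdgfra was at or below background in ES cells, Postn (-3.43) fell, and Vim (2.16), Tagln (2.18), Acta2 (2.27) and Sparc (1.38) rose. The collagens Col1a2 (0.04) and Col6a2 (-0.15) had intervals within 0.5 of 0, and the defining marker Lum did not pass the filter on dim probes. The summed linear level of the tested fibroblast markers, in multiples of the 75th percentile of the array, was 239 to 260 on the ES arrays and 130 to 144 on the GS arrays. Of 8 Sertoli markers 2 rose, Aard (at least 28.9-fold) and Clu (1.80), and 4 fell, with summed levels of 5.65 to 6.48 in ES and 13.3 to 13.7 in GS arrays, neither of 2 Leydig markers was called (summed levels 6.78 to 9 and 8.16 to 11), and of 7 endothelial markers 3 rose and 3 fell (summed levels 10.2 to 13.7 and 7.63 to 8.53). Of 8 macrophage and blood markers 6 rose and 2 fell (median 0.76), led by Gata1 (at least 5.39-fold), while Ptprc, Lyz2, C1qa and Tyrobp, which mark leukocytes and macrophages, did not pass the filter on dim probes. The summed level of the tested macrophage and blood markers was 4.41 to 4.62 on the ES arrays and 6.1 to 6.94 on the GS arrays. The part of feeder or other cells in the results above was not tested. Hc (-1.66), for which DBA/2 mice carry a null allele, and Myo5a (-1.50), which carries the dilute mutation in DBA/2, were both lower in the C57BL/6 ES cells.

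No slide held both ES and wildtype GS arrays, so slide and cell type are linked only through the Xist KO arrays. With the slide as a fixed block 12421 features were called, and within the slide that held ES replicates 1 and 2 with Xist KO GS replicates 2 and 3, 12913 differed between those lines, with 2019 at least 4-fold higher and 2676 at least 4-fold lower in ES cells. The 4-fold counts of the main comparison were 2131 and 2718.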

How the data were processed

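One-colour Agilent arrays of 9 samples were used, and the authors deposited spot intensity values for each. Per the file headers, the spots were read with Agilent Feature Extraction 11.0.1.1, which subtracts the local background and removes spatial trends, on an array designed on mm9. The authors also deposited a table of normalised intensity values with a method not given in the sources used here. Its columns had medians of 83.3 to 83.6 and correlated with the same arrays at r = 0.9948 to 0.9995.

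From these, log2 of the processed signal minus its 75th percentile on each array was computed. Control spots and the 157 to 327 outlier spots per array were left out, and no spot was saturated. Spots of a probe were averaged. Probes had to be well above background on every array of at least 1 of the 3 groups, Xist KO GS included, which kept 25656 of 39429. Of all probes, 26055 were matched by accession to a RefSeq symbol. A gene was represented by its kept probe with the highest mean. Of 3627 genes with several probes, 234 (6.45%) had probes called in opposite directions. The 3 groups were fitted together with limma 3.58.1 (lmFit, eBayes) in R 4.3.3, with 6 residual and 2.21 prior degrees of freedom, and p-values were adjusted by Benjamini and Hochberg over all 21044 features. In the self-test on simulated data, 58% of 100 features changed by 1 on the log2 scale and 89% of 100 changed by 2 were recovered. Only these features of the 21044 were changed there, whereas 76.3% were called in the data. The adjusted cut-off was therefore stricter in the simulation, and these rates do not give the recovery in the real comparison. Error bars ± are SDs over 3 arrays, and the number of arrays limits the precision.

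The gene lists, their members and the rule for named genes were chosen with earlier results of these data known. Named genes were the 12 largest rises and 12 largest falls whose groups did not overlap, the leading and opposing members of each list, members whose 95% interval lay within 0.5 of 0, and any member of the pluripotency, stem cell, imprinted, DNA methylation, Y-linked and strain lists. The motif search chose the 5 printed promoters because they hold both motifs. Alternatives changed the scaling, the background correction (normexp with an offset of 50, run on the spot medians because the files have no spot mean), the filter, the probe, the arrays, the slide, the replicate block and each replicate. Same-numbered ES and wildtype GS arrays deviated with correlations of 0.02, -0.15 and 0.02, so the numbers were not taken to pair them. Some genes are not reported here.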

Additional observations from a re-analysis of the deposited data

How the results depend on the processing

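The count of called features was 16058 and lay between 15046 and 15960 when 1 array was left out. It was 15679 with the replicate block, which changed no call of the 324 called genes named in the text. It was 12421 with the slide as a fixed block, 15910 with the slide as a random block, 12719 with only probes above background on all arrays (15999 tested, 5087 of them called lower) and between 15191 and 17286 under the remaining alternatives, other than the 12913 within 1 slide. The 4-fold counts depended on the background correction and filter. Features at least 4-fold higher numbered 2131, and 1417 and 1053 after normexp with the 75th percentile and with quantile normalization. Features at least 4-fold lower numbered 2718, and 1049 and 1268 after the same corrections and 1090 with the stricter filter. At a 2-fold threshold 5013 were higher and 5364 lower. The share of 4-fold features that were higher, 43.9%, became 54.6% with median scaling, 57.5% with normexp and the 75th percentile, and 59.3% with the stricter filter. Leaving out 1 array gave 2060 to 2207 and 2639 to 2895. Normexp raises low signals and shrinks large differences by construction.

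Of 6717 values of the 324 called genes under alternatives, 6593 kept their direction and call, 110 lost the call and 14 changed sign. Under quantile normalization, normexp with quantile normalization and the authors' values, in that order, Cd9 was -0.29, -0.40 and -0.29 and Max -0.19, -0.20 and -0.16. Lin28a and Col1a2, not called in the main comparison and so outside these counts, were -0.88, -0.90 and -0.89, and -0.47, -0.40 and -0.48. After normexp with the 75th percentile Arg2 was 0.20. Rxrb was -0.01 under quantile normalization and -0.02 with the authors' values. With the dimmest probe of the gene, Plagl1 was -0.46, Rxra -0.66, Tet3 -0.74 and Zic1 1.22, and Zic1 was 1.22 with the stricter filter too.

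Several list medians moved by over 1.5 times with no change of sign. Over the members above background on all arrays, primed epiblast fell from 1.76 to 0.04 (11 members), stem spermatogonia moved from -2.36 to -0.65 (26), RNA regulation from -0.99 to -0.15 (33) and X-linked germ cell genes from -1.84 to -0.80 (10). After normexp with the 75th percentile, Hox moved from -2.53 to -0.60, Y-linked genes from -5.14 to -1.81, meiosis from -1.38 to -0.59, insulin and PI3K from -1.23 to -0.45, antigen presentation from -1.47 to -0.92, interferon from -0.76 to -0.10 and the X-inactivation centre from -0.84 to -0.27. After normexp with quantile normalization, oxidative phosphorylation moved from 1.14 to 0.28, one-carbon metabolism from 1.63 to 0.85 and glycolysis from 1.60 to 1.03. Some medians changed sign. Polycomb became -0.18, -0.19 and -0.17 under quantile normalization, normexp with quantile normalization and the authors' values, and retroelement silencing -0.45, -0.42 and -0.44, with -0.19 for the mean of probes and -0.32 for the dimmest probe. Adhesion became 0.25 and the Sertoli markers 0.32 after normexp with the 75th percentile, and 0.37 and 0.26 with the dimmest probe. Cholesterol synthesis became 0.18 with median scaling, retinoic acid -0.22 with the dimmest probe, spermatid genes 0.46 and chemokines 0.23 with the stricter filter, and endothelial markers -0.85 with the mean and -1.95 with the dimmest probe. The cause was not tested where no value above shows it. Signal over background limits the genes given only as a bound, 1549 of the called features.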
